A study of Mus musculus with 4 samples.

Results

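Expression in B16F10 spheroids was compared with expression in a B16F10 tumor over the genes that B16F10 cells express by themselves in flat culture. Genes were kept when they had at least 10 CPM (reads on a gene, scaled to a common library total) in the 2D monoculture, a filter that limits transcripts of host cells. It kept 9214 of the 24527 gene symbols counted, and 19393 symbols had at least 1 read in either of the libraries compared. For each kept gene the log2 ratio of spheroid to tumor was taken after 1 CPM was added to both values, so a ratio of 1 means a 2-fold higher level in the spheroid. Each condition has 1 library, so no difference below has a replicate check, no p-value is given, and every interval is a 95% interval that covers counting error only.

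B16F10 is a melanoma line of C57BL/6 mice and NIH/3T3 a mouse fibroblast line. The spheroid library came from B16F10 cells with cytoplasmic green fluorescent protein, grown as hanging drops in 3D with red fluorescent NIH/3T3 cells and then sorted for green fluorescence. The 2D co-culture held the same pair of lines in a flat layer and the 2D monoculture held B16F10 alone, both sorted in the same way. The tumor library came from B16F10 cells injected under the skin of both flanks of female C57BL/6 mice aged 1 year. All 4 libraries carry the genotype label WT. The methods of the study describe sorted tumor cells, whereas the label of the tumor library names snap-frozen tumor tissue. The culture libraries are therefore described as sorted cells, and for the tumor library the sources differ on whether it was sorted.

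A B16F10 cell in a spheroid and one in a tumor share a genome but not their surroundings. Cells in packed 3D culture depend on diffusion for oxygen and amino acids, and cells short of amino acids or burdened with unfolded protein use the integrated stress response, in which the kinases of eIF2 slow translation and raise production of the transcription factor ATF4. ATF4 drives genes for amino acid transport and synthesis, NRF2 drives genes that detoxify oxidants and store iron, and E2F and the mitotic factors drive the genes of the cell cycle. In melanocytes the factor MITF drives the enzymes that make melanin.

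The libraries held between 118896900 and 150028663 reads. The kept genes took 98.5% of the reads of the spheroid library, 92.8% of the tumor library, 98.9% of the 2D monoculture and 98.6% of the 2D co-culture. All 8 melanocyte markers were among the kept genes, and their summed level was 11420 CPM in the spheroid, 20122 in the tumor, 16911 in the 2D monoculture and 15306 in the 2D co-culture. Of 59 markers of other cell types 4 were kept, namely Cd68, Eng, Egfl7 and Pdgfrb, and 7 of the 10 lists of other cell types had none. Summed over whole lists, 9 of the 10 were higher in the tumor than in the spheroid. The myeloid list had 1931 CPM in the tumor and 26.8 CPM in the spheroid, the fibroblast list 2728 and 36.5 CPM, the skeletal muscle list 3987 and 11.6 CPM and the adipocyte list 722 and 1.17 CPM. The pericyte list had 297 and 3.04 CPM, the lymphoid list 6.48 and 0.213, the erythroid list 12.2 and 0.0441, the neutrophil list 6.203 and 0.0367 and the keratinocyte list 1.11 and 0.00734. The endothelial list had 365 CPM in the tumor and 403 CPM in the spheroid, of which Eng and Egfl7, kept genes with 309.5 CPM in the 2D monoculture, made up 136 and 402 CPM. The 5 other endothelial markers had 228 CPM in the tumor and 0.397 CPM in the spheroid. The fibroblast list also had 679 CPM in the 2D co-culture, against 17.6 CPM in the 2D monoculture, and the pericyte list 74.0 against 9.53 CPM. The part of fibroblast RNA in the co-culture values below was not tested. Hba-a1, Hbb-bs and Hbb-bt had no read in any library, and Krt1 had none in the spheroid, tumor or 2D co-culture. In the spheroid, Krt5, Krt14, Ms4a1, Ncr1, Ly6g and Mpo also had no read, and in the tumor Ly6g had none. The part of host cells in the ratios of the kept genes was not tested.

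Of the kept genes, 2884 (31.3%) were more than 2-fold higher in the spheroid and 1855 (20.1%) more than 2-fold lower, 51.4% in all, while 4475 (48.6%) lay within 2-fold. Beyond 4-fold, 825 were higher and 597 lower. The quartiles of the log2 ratio were -0.72 and 1.24, and its median was 0.31. This median depends on the scaling: with total counts it moved by -0.35, with TMM factors computed on the kept genes by -0.31 and with upper quartiles by -0.13. Of the genes past 2-fold, 60.9% were higher in the spheroid, against 46.1% with total counts, 47.9% with TMM factors of the kept genes and 55.8% with upper quartiles. Gene groups are therefore called higher, lower or matching below relative to the median of 0.31. Their medians and counts past 2-fold are printed without this subtraction unless called relative, so they move with the scaling. Set against the tumor, the absolute log2 ratio had a median of 1.04 for cells of the spheroid, against 0.73 for the 2D co-culture, with the 2D monoculture at 0.60, and these ratios share the tumor library. The monoculture value also rests on the level that the filter used, so the 3 values are not ranked. Across the kept genes, the Spearman correlation of levels between spheroid and tumor was 0.57. Genes are not independent replicates.

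**Figure D1:**
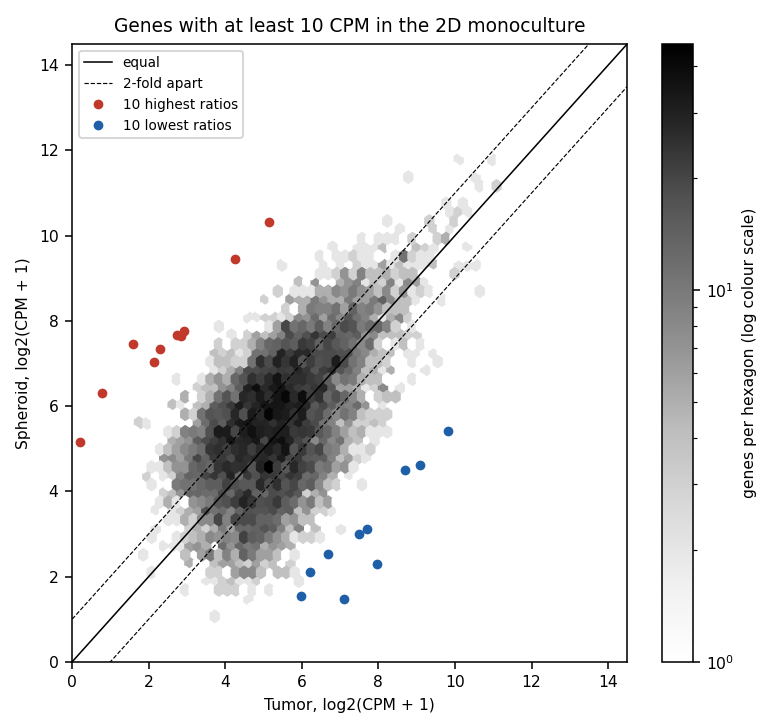
Levels of the 9214 kept genes in the tumor (x axis) and the spheroid (y axis), both as log2(CPM + 1), with the number of genes per hexagon in grey. Solid and dashed lines mark equal levels and 2-fold differences. The 10 highest ratios (red, 4.81 to 5.87) and the 10 lowest (blue, -5.67 to -4.10) lie apart from the main cloud.

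The monoculture gives a common point for both sides of the ratio. Genes more than 2-fold higher in the spheroid had, relative to the 2D monoculture, a median log2 ratio of 0.65 in the spheroid and -1.07 in the tumor. Genes more than 2-fold lower had medians of -1.49 and 0.32. Genes within 2-fold had medians of -0.05 and -0.19. The filter used the level in this same monoculture library, so ratios to it, here and below, are not independent of how the genes were chosen, and nothing is read from their sign. The genes nearest to the filter were of all kinds: just inside it, Nr2f1 had a log2 ratio of spheroid to tumor of 1.97, Slx4ip of -2.06 and Ago3 of -0.04. Just outside it, Gm10069 had -0.51, Megf10 -2.28 and Zfp729a -2.07. Beyond the filter, 1402 genes had at least 10 CPM in the spheroid or the tumor but not in the 2D monoculture. Of these, 63.1% were more than 2-fold lower in the spheroid and 19.2% higher, 82.3% in all. A gene could enter this group through the library where it was high, which raises these shares. They are therefore not compared with those of the kept genes.

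The 10 highest ratios belonged to Fbxo2, Nrxn2, Ppp1r15a, Trib3, Dusp8, Map1a, Bcan, Hoxb9, Eno2 and Adamtsl5. Fbxo2 (chr4:148160198-148166420 of GRCm38), an F-box protein that binds glycoproteins for degradation, had 175 CPM in the spheroid, 2.01 in the tumor, 104 in the 2D monoculture and 29.2 in the 2D co-culture. Its log2 ratio was 5.87 (interval 5.76 to 5.98), the top value of the kept genes. Trib3 (chr2:152337425-152344060), a pseudokinase induced by ATF4, had 1279 CPM in the spheroid, 34.5 in the tumor, 191 in the 2D monoculture and 163 in the 2D co-culture. Its log2 ratio was 5.17 (5.14 to 5.21). Ppp1r15a (chr7:45522917-45526268), which encodes the phosphatase subunit that restores translation by dephosphorylating eIF2, had 699.8 CPM in the spheroid, 18.2 in the tumor, 171 in the 2D monoculture and 148 in the 2D co-culture, a log2 ratio of 5.19 (5.14 to 5.24). In all of these genes the tumor was lowest of the 4 libraries and the spheroid highest. Eno2, the neuronal enolase of glycolysis, had a log2 ratio of 4.84, and Dusp8, a phosphatase of stress-activated kinases, had 5.03. Nrxn2, Map1a and Bcan, which neurons use for synapses, microtubules and matrix, had 5.51, 4.95 and 4.94, and Bcan rested on 25 reads in the tumor and 4688 in the spheroid.

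The 10 lowest ratios belonged to Emp1, Thbs1, Ahnak, Irgm1, Top2a, Samd9l, Tmsb4x, Sparcl1, S100a6 and Cenpf. Emp1 (chr6:135362550-135383173), an epithelial membrane protein, had 3.90 CPM in the spheroid, 249 in the tumor, 15.4 in the 2D monoculture and 40.8 in the 2D co-culture, a log2 ratio of -5.67 (-5.77 to -5.57). Thbs1 (chr2:118111876-118127133), the matrix protein thrombospondin-1, had 1.76 CPM in the spheroid, 136 in the tumor, 12.1 in the 2D monoculture and 33.9 in the 2D co-culture, a log2 ratio of -5.63 (-5.75 to -5.51). For both genes the tumor was highest and the spheroid lowest. Top2a (chr11:98992947-99024199), the topoisomerase that disentangles chromosomes in dividing cells, had 23.5 CPM in the spheroid, 544 in the tumor, 168 in the 2D monoculture and 56.5 in the 2D co-culture. Its log2 ratio was -4.48 (-4.53 to -4.43). Irgm1 and Samd9l, both induced by interferon, had -4.50 and -4.42. Tmsb4x, which encodes the actin-binding peptide thymosin beta-4, had 904 CPM in the tumor and between 33.3 and 78.9 CPM in the cultures. Several of these genes are also expressed by stromal and immune cells, whose part in the tumor values was not tested.

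Functions were described with 46 lists of genes, which held 1088 of the kept genes. A list is called higher or lower where its median log2 ratio lay more than 0.5 from the median of all kept genes, and matching where it lay within 0.25 of it. By this rule 7 lists were higher in the spheroid, 13 lower, 14 matching and 12 in between. Counts of list members past 2-fold are to be read against all kept genes, of which 31.3% were higher and 20.1% lower. Under the 4 other scalings at least 45 of the 46 lists had the same call. A scaling shifts all ratios by nearly the same amount, which cancels against the median of all kept genes, so this agreement was built in. Other filters could change a call. The same call held for 37 lists with a minimum of 1 CPM in the 2D monoculture and 38 with 30 CPM. With every gene that had a read, 19 lists kept it. Without the filter, complex I subunits (0.57) and glycolysis (0.53), matching with it, were called higher. With GC classes removed 28 lists kept their call, and with length classes removed 34.

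**Figure D2:**
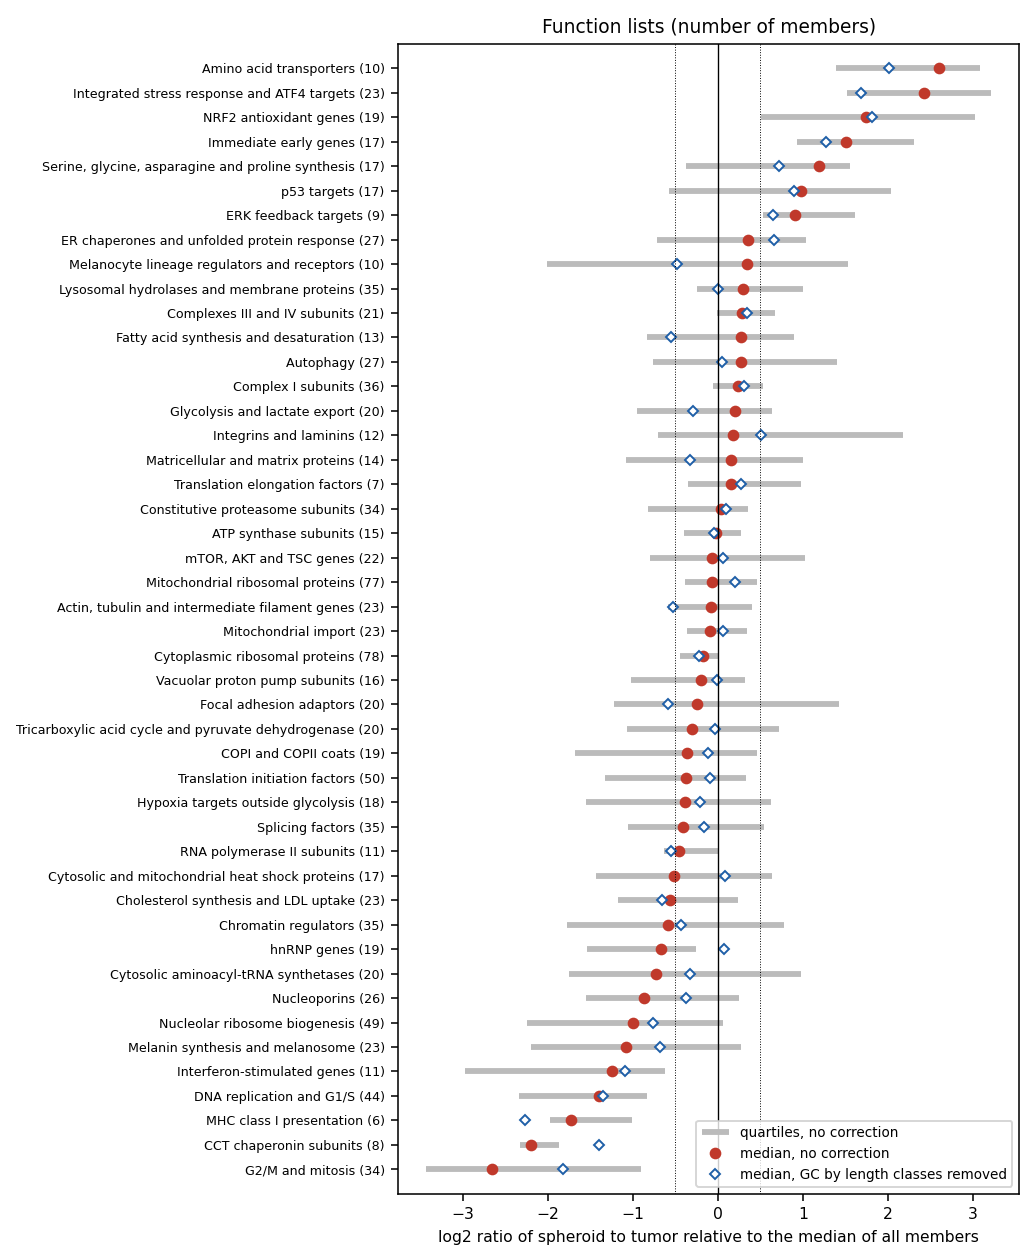
Median log2 ratio of spheroid to tumor of each function list, relative to the median of all kept genes (red points), with the quartiles of its members (grey bars) and the median after the median of each class of GC content and transcript length was removed (open blue diamonds). Dotted lines mark 0.5 on either side. Relative to all kept genes, amino acid transporters lie at the top without and with the removal, at 2.60 and 2.01, while G2/M genes are lowest without it, at -2.66, and MHC class I genes with it, at -2.27.

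The genes of the integrated stress response had the second highest median of the lists, 2.73, and amino acid transporters the highest, 2.92. This order depends on the filter: with a minimum of 1 CPM the medians relative to all genes kept were 2.47 for the stress response, 1.84 for NRF2 genes and 1.74 for transporters, and with no filter 2.68, 2.09 and 1.82. Of 23 kept ATF4 targets and response genes (25 on the list), 21 were more than 2-fold higher in the spheroid and none lower, against 31.3% and 20.1% of all kept genes. Their median was 1.25 for spheroid to 2D monoculture and -1.19 for tumor to 2D monoculture. Atf4 itself had 2713 CPM in the spheroid, 407 in the tumor, 671 in the 2D monoculture and 1229 in the 2D co-culture, a log2 ratio of 2.73 (2.72 to 2.75). The member with the lowest ratio was Psat1, an enzyme of serine synthesis, at -0.35, with 130.2 CPM in the spheroid against 166 in the tumor.

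The promoters of ATF4 targets often carry a composite site for ATF4 and a C/EBP partner. In the 300 bases from 250 before to 50 after the start site (RefSeq, GRCm38.p6), the core TGATGNAA was present on either strand in 7 of 22 response genes with an entry (31.8%), against 2.41% of 7305 kept genes and 4.51% of 27025 genes with an entry. The 7 were Asns, Atf3, Chac1, Nupr1, Pck2, Slc7a11 and Trib3, with log2 ratios of spheroid to tumor from 1.5 to 5.17. Response genes without a match ranged from -0.35 for Psat1 to 5.19 for Ppp1r15a, so that genes with and without the core overlapped in ratio. A match is a description of these letters and not a measured binding site. The promoters of 4 of the 7 are printed here because these genes carried some of the highest ratios of the list, with the matches in capitals. Trib3 lies at chr2:152344011-152344310 on the minus strand, Slc7a11 at chr3:50443564-50443863 on the minus strand, Chac1 at chr2:119350992-119351291 on the plus strand and Atf3 at chr1:191183284-191183583 on the minus strand.
Trib3: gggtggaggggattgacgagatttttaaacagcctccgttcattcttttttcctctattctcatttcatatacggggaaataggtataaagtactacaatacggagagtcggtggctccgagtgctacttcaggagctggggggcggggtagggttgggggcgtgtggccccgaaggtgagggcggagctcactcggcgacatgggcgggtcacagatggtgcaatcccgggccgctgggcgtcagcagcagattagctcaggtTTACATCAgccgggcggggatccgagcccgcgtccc
Slc7a11: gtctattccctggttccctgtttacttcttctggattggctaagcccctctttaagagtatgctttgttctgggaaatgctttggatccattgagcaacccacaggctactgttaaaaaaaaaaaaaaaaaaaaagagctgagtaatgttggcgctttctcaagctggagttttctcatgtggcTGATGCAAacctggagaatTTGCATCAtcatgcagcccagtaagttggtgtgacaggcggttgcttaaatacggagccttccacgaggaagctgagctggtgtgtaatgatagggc
Chac1: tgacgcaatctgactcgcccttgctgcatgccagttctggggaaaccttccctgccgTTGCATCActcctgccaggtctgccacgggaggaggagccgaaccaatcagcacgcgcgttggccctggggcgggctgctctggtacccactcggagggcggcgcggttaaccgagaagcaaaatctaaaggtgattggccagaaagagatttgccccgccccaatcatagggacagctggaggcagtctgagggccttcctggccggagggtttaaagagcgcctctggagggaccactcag
Atf3: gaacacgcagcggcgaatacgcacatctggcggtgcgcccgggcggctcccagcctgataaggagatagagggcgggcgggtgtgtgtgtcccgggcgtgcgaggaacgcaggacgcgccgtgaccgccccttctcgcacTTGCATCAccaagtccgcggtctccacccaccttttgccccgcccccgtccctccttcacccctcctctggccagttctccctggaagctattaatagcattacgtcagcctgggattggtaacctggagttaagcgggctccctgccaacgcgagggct
The match in Trib3 begins 14 bases after the start site, the pair in Slc7a11 66 and 47 bases before it, that in Chac1 193 bases before it and that in Atf3 110 bases before it. Slc7a11, the cystine importer, had 234 CPM in the spheroid against 12.9 in the tumor, with 419.7 CPM in the 2D monoculture but 115 in the 2D co-culture, so that here the monoculture was highest. Chac1, which degrades glutathione, had a log2 ratio of 3.83, and Atf3, a transcription factor of the same family as ATF4, had 3.11.

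Of 10 kept amino acid transporters (14 on the list), 9 were more than 2-fold higher in the spheroid. Slc3a2, the heavy chain shared by several transporters, had 1504 CPM in the spheroid, 169 in the tumor, 631 in the 2D monoculture and 733 in the 2D co-culture. Its partner Slc7a5, which imports large neutral amino acids, had 796 CPM in the spheroid against 80.1 in the tumor, and Slc1a5, a glutamine transporter, 626 and 96.0 CPM. The top ratio was that of the glycine transporter Slc6a9, 4.08, and the lowest that of the glutamine transporter Slc38a2, 0.92. Enzymes that make serine, glycine, asparagine and proline had a median of 1.5, with 11 of 17 higher and 2 lower. Phgdh, the first enzyme of serine synthesis, had 711 CPM in the spheroid, 167 in the tumor, 269 in the 2D monoculture and 727 in the 2D co-culture. Mthfd1, a cytosolic folate enzyme, had the lowest ratio of the list, -1.35. Several genes, among them Phgdh, Psat1, Shmt2, Slc3a2, Slc7a5 and Slc7a11, stand on more than 1 list, so the lists are not separate counts.

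NRF2 antioxidant genes had a median of 2.06, with 13 of 19 more than 2-fold higher and none lower. Fth1 and Ftl1, the chains of the iron store ferritin, had 12424 and 19613 CPM in the spheroid and 1471 and 3582 CPM in the tumor, and Ftl1 had the highest mean level of the kept genes. Hmox1, which degrades heme, had 3123 CPM in the spheroid, 247 in the tumor, 1261 in the 2D monoculture and 670.2 in the 2D co-culture, a log2 ratio of 3.65 (3.64 to 3.67). Sqstm1, an autophagy receptor, had 7323 CPM in the spheroid against 701 in the tumor. The exception at the bottom of the list was Prdx1, a peroxiredoxin, which had 1231 CPM in the spheroid against 1153 in the tumor. The antioxidant element core TGACNNNGC was present in 7 of 16 promoters of the list (43.8%) and in 17.2% of the kept genes with an entry.

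Immediate early genes, which respond to growth factor and stress signals within minutes, had a median of 1.82, with 13 of 17 higher and none lower. Egr1 had 168 CPM in the spheroid, 9.71 in the tumor, 12.1 in the 2D monoculture and 57.0 in the 2D co-culture. Jun had 451 CPM in the spheroid against 64.4 in the tumor, and Klf10 was lowest at a log2 ratio of -0.87. The spheroid cells were sorted, whereas the tumor library is labelled snap-frozen and the sources differ on its sorting. Sample handling and condition therefore cannot be told apart for the immediate early genes. Feedback targets of ERK signalling had a median of 1.22, with 6 of 9 higher, from Spred1 at -1.01 to Spred3 at 2.67. Targets of p53 had a median of 1.29, with 10 of 17 higher (58.8%) and 2 lower (11.8%). Cdkn1a, the cell cycle inhibitor p21, had 813 CPM in the spheroid, 118 in the tumor, 847 in the 2D monoculture and 515 in the 2D co-culture, and the pro-apoptotic gene Bbc3 had 91.9 and 5.43 CPM in spheroid and tumor. For the p53 list the median of tumor to 2D monoculture was -1.62 and that of spheroid to 2D monoculture -0.08.

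At the other end, genes of G2/M and mitosis had a median of -2.35, with 22 of 34 more than 2-fold lower in the spheroid and 1 higher. The median was -1.60 for spheroid to 2D monoculture and 0.52 for tumor to 2D monoculture. Cdk1, the kinase that starts mitosis, had 145 CPM in the spheroid, 239 in the tumor, 135 in the 2D monoculture and 221 in the 2D co-culture. Ccna2, which encodes cyclin A2, had 62.0, 186, 131 and 207 CPM in the same order. The list was not uniform: Ube2c, a ubiquitin-conjugating enzyme of mitotic exit, had a log2 ratio of 0.54 and Aurkb, the kinase of chromosome segregation, 1.22. Genes of DNA replication had a median of -1.08, with 24 of 44 lower and 3 higher. Rrm1 and Pola1, a ribonucleotide reductase subunit and the catalytic subunit of DNA polymerase alpha, had -3.85 and -3.98. Pcna, the sliding clamp, had 280.1 CPM in the spheroid against 585 in the tumor, whereas Mcm2, of the replicative helicase, had 348 and 248 CPM and Pold1 129 and 40.7 CPM. The E2F site TTTCCCGC was present on either strand in 7 of 36 replication promoters (19.4%) and in 2.72% of the kept genes with an entry. In bulk libraries, fewer cells of a type and less RNA per cell cannot be told apart.

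The 8 kept subunits of the CCT chaperonin, which folds actin and tubulin, had a median of -1.88, and 7 were more than 2-fold lower. Cct8 had 186 CPM in the spheroid, 720.1 in the tumor, 534 in the 2D monoculture and 427 in the 2D co-culture. The exception was Cct7, with 1020 CPM in the spheroid against 858 in the tumor. Other cytosolic and mitochondrial heat shock proteins had a median of -0.20. Of 17 kept, 3 were higher (17.6%) and 6 lower (35.3%), against 31.3% and 20.1% of all kept genes. Hsp90aa1, the inducible Hsp90, had 538 CPM in the spheroid against 2466 in the tumor, while its constitutive relative Hsp90ab1 had 3612 and 1995 CPM. Nucleolar genes of ribosome biogenesis had a median of -0.69, with 21 of 49 lower and 6 higher. Ncl and Npm1, abundant nucleolar proteins, had log2 ratios of -3.07 and -1.93, and Nol6 had 1.84.

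Genes that present antigen on MHC class I had a median of -1.42 over 6 kept genes of 13 on the list. B2m, the shared light chain, had 423 CPM in the spheroid, 1727 in the tumor, 274 in the 2D monoculture and 351 in the 2D co-culture. H2-K1, a heavy chain, had 191, 550.4, 44.1 and 34.6 CPM in the same order, so that the spheroid lay above both flat cultures and below the tumor. H2 genes share sequence, and reads may be divided among them. The 11 kept interferon-stimulated genes of 23 had a median of -0.93, with 5 lower and none higher. Immune cells express these genes too, and the myeloid markers were higher in the tumor library by the sums above. Their part in these ratios was not tested.

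Melanin genes had a median of -0.77, with 9 of 23 lower (39.1%) and 4 higher (17.4%). Tyrp1, Dct and Tyr, the enzymes of melanin synthesis, had log2 ratios of -1.87, -0.78 and -0.80. Tyrp1 had 2455 CPM in the spheroid, 8948 in the tumor, 6168 in the 2D monoculture and 4232 in the 2D co-culture. Pmel, the fibril protein of melanosomes, had 3478 CPM in the spheroid against 2208 in the tumor, and Gpnmb, a melanosome glycoprotein, 4624 and 1772 CPM. Mitf had 70.3 CPM in the spheroid, 708 in the tumor, 416 in the 2D monoculture and 223 in the 2D co-culture, a log2 ratio of -3.31 (-3.34 to -3.28), while Sox10, which acts upstream of it, had 902 CPM in the spheroid against 237 in the tumor. The M-box TCATGTG, the site through which MITF acts on pigment genes, was present in 6 of 18 melanin promoters (33.3%). It was present in 2.57% of the kept genes with an entry. Among these 6 melanin genes the log2 ratio ranged from -1.87 for Tyrp1 to 1.997 for Hps1, so that genes with the site lay on both sides. Atp7a, the lowest of the list at -2.93, had no match. Tyrp1 is shown because it had the most reads of the list, at chr4:80833963-80834262 on the plus strand, with the M-box in capitals 47 bases before the start site.
Tyrp1: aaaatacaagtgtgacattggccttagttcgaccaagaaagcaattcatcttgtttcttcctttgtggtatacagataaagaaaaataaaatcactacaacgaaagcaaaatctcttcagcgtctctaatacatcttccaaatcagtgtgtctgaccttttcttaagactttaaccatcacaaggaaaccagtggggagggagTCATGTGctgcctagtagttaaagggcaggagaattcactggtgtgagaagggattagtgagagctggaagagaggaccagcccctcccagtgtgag

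Chaperones of the endoplasmic reticulum and the unfolded protein response lay in between, with a median of 0.67, or 0.35 relative to all kept genes. Of 27 kept, 12 were higher and 3 lower. Hspa5, the main Hsp70 of this compartment, had 2323 CPM in the spheroid, 1858 in the tumor, 2421 in the 2D monoculture and 2747 in the 2D co-culture, a log2 ratio of 0.32. Hsp90b1, the Hsp90 of the same compartment, had 579 CPM in the spheroid, 2189 in the tumor, 1995 in the 2D monoculture and 845 in the 2D co-culture, a log2 ratio of -1.92. Both promoters carry the ER stress element (CCAAT, then 9 bases of any kind, then CCACG, read on both strands), which 8 of 21 genes of the list and 0.219% of the kept genes with an entry had. Among these 8 the ratio of spheroid to tumor ranged from -2.17 for Dnajc3 to 2.55 for Syvn1, so that genes with the same element lay on both sides. The promoters of Hspa5 (chr2:34771840-34772139, plus strand) and Hsp90b1 (chr10:86705395-86705694, minus strand) are shown as a pair with the element and unlike ratios, with the element in capitals.
Hspa5: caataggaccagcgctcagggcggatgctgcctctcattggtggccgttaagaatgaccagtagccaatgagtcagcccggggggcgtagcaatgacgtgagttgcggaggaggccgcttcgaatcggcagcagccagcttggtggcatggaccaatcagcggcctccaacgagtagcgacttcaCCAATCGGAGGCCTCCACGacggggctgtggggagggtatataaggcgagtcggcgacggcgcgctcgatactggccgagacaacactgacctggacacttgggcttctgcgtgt
Hsp90b1: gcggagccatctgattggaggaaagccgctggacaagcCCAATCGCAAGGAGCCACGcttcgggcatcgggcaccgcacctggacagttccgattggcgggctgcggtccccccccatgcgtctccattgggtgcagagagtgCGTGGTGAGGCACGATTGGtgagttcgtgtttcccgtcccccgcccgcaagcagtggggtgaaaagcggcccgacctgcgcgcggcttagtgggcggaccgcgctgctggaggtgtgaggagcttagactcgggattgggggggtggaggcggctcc
Hspa5 has 1 match, 65 bases before the start site, and Hsp90b1 has 2, at 212 and 107 bases before it. The GC content was 45.6% for the Hspa5 transcript and 43.8% for that of Hsp90b1. The part of GC content in the unlike ratios of this pair was not tested.

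The 14 matching lists included ribosomal proteins and several lists of energy supply, adhesion and protein turnover. Cytoplasmic ribosomal proteins had a median of 0.13, and of 78 kept genes 74 lay within 2-fold, 1 was higher and 3 were lower. Rplp0 had 2125 CPM in the spheroid, 2229 in the tumor, 2058 in the 2D monoculture and 2781 in the 2D co-culture. Rack1, a scaffold on the small subunit, had 2196 CPM in the spheroid against 2131 in the tumor, a log2 ratio of 0.04 (0.04 to 0.05). The extremes were Rpl4 at -1.28 and Rplp2 at 1.03, and pseudogene copies of these genes can take some of their reads. Among genes within 0.1 of a log2 ratio of 0, of which there were 463, the 10 with the highest mean level were Rack1, Rplp0, Rplp1, Atp5a1, Prdx1, Ran, Rps25, Rps26, Morf4l1b and Morf4l1-ps1. The last 2 are copies of Morf4l1, and reads cannot be assigned to them with confidence.

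Mitochondrial ribosomal proteins had a median of 0.24, with 14 of 77 higher and none lower, and complex I subunits 0.55, with 3 of 36 higher and 1 lower. ATP synthase subunits had 0.29, and 14 of 15 lay within 2-fold. Atp5b, the catalytic beta subunit, had 2485 CPM in the spheroid, 1608 in the tumor, 2253 in the 2D monoculture and 2652 in the 2D co-culture. Subunits of the constitutive proteasome had 0.35, with 4 of 34 higher and 2 lower, from Psmd1 at -1.72 to Psmd3 at 2.33. Glycolysis and lactate export had 0.52, with 5 of 20 higher (25%) and 1 lower (5%), against 31.3% and 20.1% of all kept genes. Ldha, lactate dehydrogenase, had 2138 CPM in the spheroid against 3596 in the tumor. Pkm, pyruvate kinase, had 4393 and 3588 CPM and Aldoa, an aldolase, 11688 and 3558 CPM. Hypoxia targets outside glycolysis, a list in between at -0.39 relative to all kept genes, had a median of -0.07. Of 18 kept, 5 were higher (27.8%) and 6 lower (33.3%). Bnip3, a mitophagy receptor, had 233 CPM in the spheroid, 499.7 in the tumor, 110.2 in the 2D monoculture and 130.0 in the 2D co-culture. Vegfa, the angiogenic factor, had 453, 177, 107 and 167 CPM in the same order, so that spheroid and tumor were above both flat cultures in these genes.

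Lists can match at the median and still hold members far apart. Integrins and laminins had a median of 0.49, with 6 of 12 higher (50%) and 2 lower (16.7%). Itgb1, the common beta chain, had 189.6 CPM in the spheroid against 789.6 in the tumor, whereas Itgb3 had 458 and 33.1 CPM and Lama5, a laminin chain of basement membranes, 247 and 12.9 CPM. Matricellular and matrix proteins ranged from Thbs1 at -5.63 to Cyr61, a growth-factor-inducible matrix protein, at 3.85. Sparc, a collagen-binding matricellular protein, had 1341 CPM in the spheroid against 977 in the tumor. Genes of mTOR, AKT and TSC had a median of 0.24, from Rictor, the defining subunit of mTORC2, at -2.52 to Eif4ebp1, the translation repressor that mTORC1 controls, at 2.32. Translation elongation factors included Eef1a1, with 4143 CPM in the spheroid against 10769 in the tumor, and Eef2, with 7268 and 2137 CPM. Autophagy genes, a list in between, had 11 of 27 higher (40.7%, against 31.3% of all kept genes) and 3 lower, with Gabarapl1, a protein of the autophagosome membrane, at 701 CPM in the spheroid against 89.2 in the tumor.

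**Figure D3:**
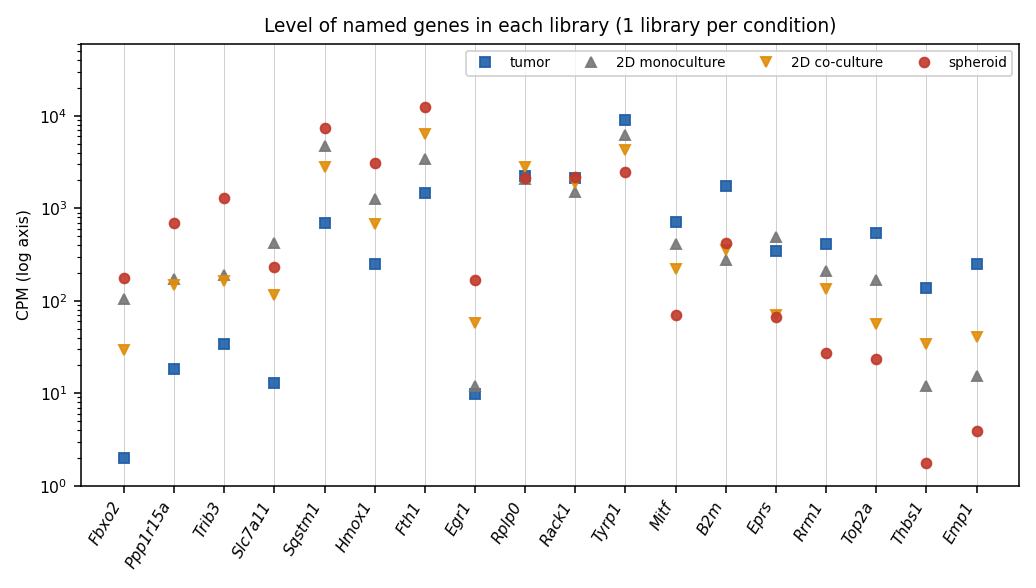
Level of 18 named genes in each of the 4 libraries, in CPM on a log axis, 1 library per condition. Stress and iron genes on the left have the tumor (blue squares) at or near the bottom, Rplp0 and Rack1 have all libraries close together, and the genes on the right have the spheroid (red circles) at the bottom, apart from B2m, where the monoculture is lowest, and Eprs, where the co-culture lies at nearly the same level.

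Genes with more G and C in their transcripts had higher ratios of spheroid to tumor. GC content was available for 9032 kept genes (98.0%). The Spearman correlation across genes was 0.67 for the GC content of the transcript, 0.70 for that of the coding sequence, 0.62 for that of the third codon positions and -0.18 for transcript length. A straight line on GC content accounted for 41.7% of the variance of the log2 ratio, with a slope of 1.501 per 10 points of GC. In the lowest of 10 equal classes of GC content (median 40.6%), the median log2 ratio was -1.01, with 2.88% of genes more than 2-fold higher and 50.2% lower. In the highest class (median 59.9%), it was 1.77, with 80.6% higher and 0.442% lower. The medians increased from each class to the next. All genes of a ratio come from the same pair of libraries, so these correlations describe the libraries and carry no p-value.

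**Figure D4:**
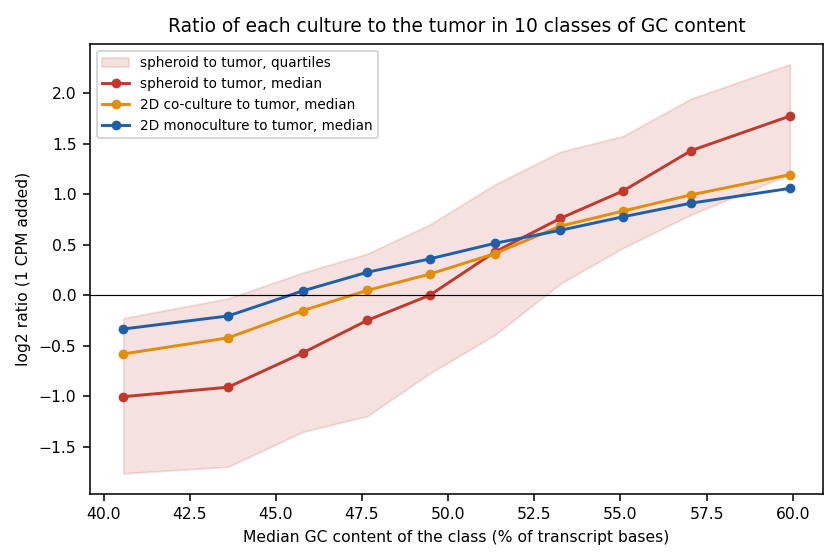
Median log2 ratio of the spheroid (red, with quartiles shaded), the 2D co-culture (orange) and the 2D monoculture (blue) to the tumor in 10 equal classes of GC content, plotted at the median GC content of each class. The spheroid runs from -1.01 to 1.77, the co-culture from -0.58 to 1.19 and the monoculture from -0.34 to 1.06.

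The trend was present in the other pairs of libraries too. The Spearman correlation with GC content was 0.61 for 2D co-culture to tumor, 0.53 for 2D monoculture to tumor, 0.50 for spheroid to 2D monoculture, 0.45 for spheroid to 2D co-culture and 0.24 for 2D co-culture to 2D monoculture. These pairs share libraries. In the lowest class of GC content the spheroid lay at -0.72 and the tumor at 0.34 relative to the monoculture, and in the highest class at 0.69 and -1.06. Within 5 classes of transcript length the correlation of the ratio of spheroid to tumor with GC content was between 0.53 and 0.72, and within 5 classes of the level in the monoculture between 0.64 and 0.70. The GC content of the promoters was all but unrelated to the ratio, with a correlation of 0.08 over 7305 genes. The cause of the trend was not tested, and condition and library cannot be told apart.

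The trend ran through functions as well as between them. Of 25 lists with at least 20 members with a GC value, the Spearman correlation of ratio and GC content within the list was above 0 in 25 and above 0.3 in 22. It was 0.86 for chromatin regulators, 0.84 for cytosolic aminoacyl-tRNA synthetases, 0.79 for cholesterol synthesis, 0.77 for focal adhesion adaptors and 0.76 for both G2/M and nucleolar genes. It was low, 0.16, for cytoplasmic ribosomal proteins and 0.17 for actin, tubulin and intermediate filament genes. Aminoacyl-tRNA synthetases, which charge tRNAs and work together in translation, held 8 higher (40%) and 7 lower (35%) members of 20. Eprs, which charges glutamate and proline, had 67.6 CPM in the spheroid, 345 in the tumor, 489 in the 2D monoculture and 70.5 in the 2D co-culture. Vars, which charges valine, had 607 CPM in the spheroid, 93.7 in the tumor, 297 in the 2D monoculture and 540.1 in the 2D co-culture. Chromatin regulators ranged from Nsd1, a histone H3 methyltransferase, at -3.67 to Kdm6b, a histone H3 demethylase, at 3.60.

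To show what this difference looks like in sequence, 90 bases of coding sequence are printed for the lowest and the highest ratio of 3 of these lists, with G and C in capitals. Each stretch is the one whose GC content is closest to that of the whole coding sequence, from GENCODE M21 transcripts on GRCm38. The genes are Eprs (chr1:185361417-185428360) and Vars (chr17:35000907-35016329), Nsd1 (chr13:55209782-55318325) and Kdm6b (chr11:69398508-69420367), and Top2a and Aurkb (chr11:69045624-69051664).
Eprs: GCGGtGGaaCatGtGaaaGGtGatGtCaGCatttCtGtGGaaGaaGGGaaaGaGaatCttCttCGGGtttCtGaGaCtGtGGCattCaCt
Vars: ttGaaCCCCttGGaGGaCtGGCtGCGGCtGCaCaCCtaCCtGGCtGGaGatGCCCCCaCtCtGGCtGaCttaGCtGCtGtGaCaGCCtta
Nsd1: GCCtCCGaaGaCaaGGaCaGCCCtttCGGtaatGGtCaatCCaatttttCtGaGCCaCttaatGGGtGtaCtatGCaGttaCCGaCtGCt
Kdm6b: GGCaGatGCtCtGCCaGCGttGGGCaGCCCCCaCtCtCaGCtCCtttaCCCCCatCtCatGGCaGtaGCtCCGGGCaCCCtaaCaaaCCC
Top2a: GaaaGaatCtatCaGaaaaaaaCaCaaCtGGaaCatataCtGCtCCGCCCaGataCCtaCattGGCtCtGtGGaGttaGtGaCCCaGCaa
Aurkb: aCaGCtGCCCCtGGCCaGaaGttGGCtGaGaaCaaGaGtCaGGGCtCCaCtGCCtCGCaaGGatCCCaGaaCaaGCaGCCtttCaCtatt
The coding sequences had a GC content of 47.2% for Eprs and 60.1% for Vars, 47.4% for Nsd1 and 61.7% for Kdm6b, and 42.9% for Top2a and 55.5% for Aurkb. In each pair the gene with the higher GC content had the higher ratio. The lists were among those with the highest correlation within the list, and the pairs were chosen by ratio, so this is a description.

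**Figure D5:**
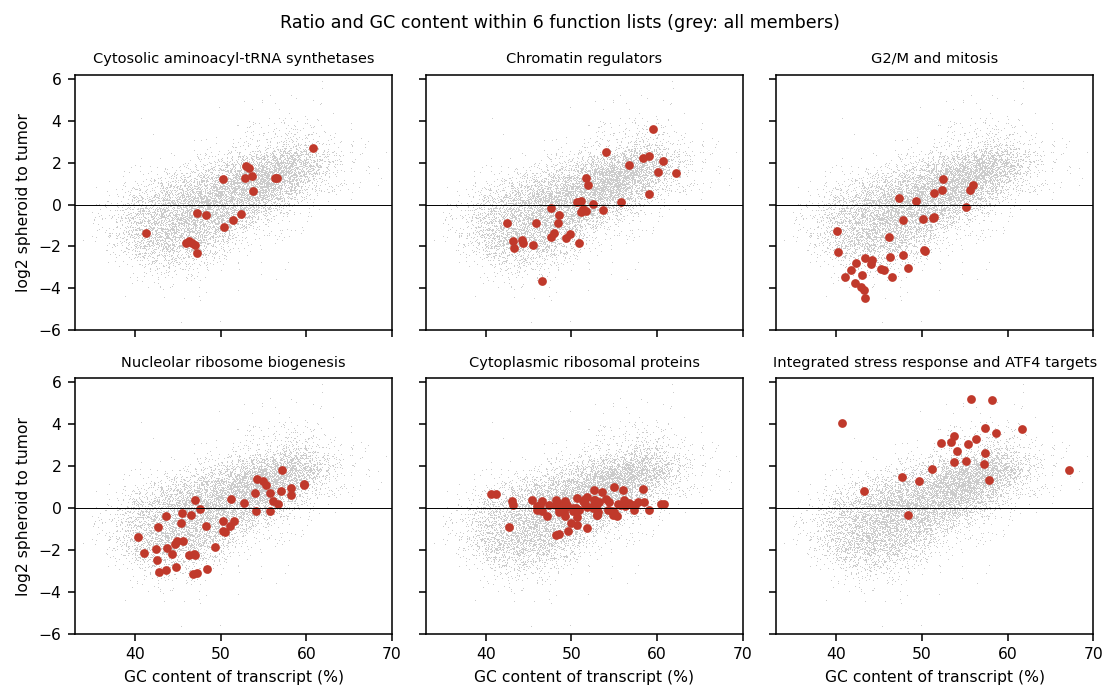
Log2 ratio of spheroid to tumor against the GC content of the transcript for the members of 6 lists (red) over all kept genes (grey). Synthetases, chromatin regulators, G2/M and nucleolar genes slope upward with GC content, and ribosomal proteins stay near 0 across their range. Most ATF4 targets lie above the middle of the grey cloud at their GC content.

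When kept genes were sorted into 10 equal classes by GC content and, separately, 10 by length, and the median of every combination was removed, the median absolute log2 ratio became 0.64, and 30.3% of genes remained past 2-fold, 1315 higher and 1423 lower. All 7 higher lists stayed higher and 8 of the 13 lower lists stayed lower, with 24 of 46 lists keeping their call. Of the 14 matching lists 7 stayed matching. After the removal the kept genes had a median of 0, so the list medians after it are already relative to all kept genes. Complex I subunits (0.30), glycolysis (-0.29), elongation factors (0.27) and matrix proteins (-0.33) then lay in between, focal adhesion adaptors (-0.58) and actin, tubulin and intermediate filament genes (-0.53) were lower, and integrins and laminins (0.50) were higher. ATF4 targets then had a median of 1.68 (2.42 relative to all kept genes before it), with 19 of 23 higher and none lower. NRF2 genes had 1.81 (1.74 before), with 11 of 19 higher. Trib3 had 3.81, Ppp1r15a 3.93 and Slc7a11, whose transcript has a GC content of 40.7%, 5.51. G2/M genes had -1.82 (-2.66 relative to all kept genes before), with 21 of 34 lower. Replication genes went from -1.39 on this relative scale to -1.36, MHC class I genes from -1.73 to -2.27 and melanin genes from -1.09 to -0.68. Aminoacyl-tRNA synthetases went from -0.72 relative to all kept genes to -0.33, with 1 higher and 8 lower, and heat shock proteins and hnRNP genes from -0.51 and -0.67 to 0.08 and 0.07. ER chaperones moved into the higher lists, from 0.35 relative to all kept genes to 0.66. Vars, at 2.68 without the removal, had 0.68 with it, and Sox10 went from 1.93 to -0.03. Cytoplasmic ribosomal proteins matched both ways, at -0.18 and -0.22. The removal takes out any difference between the conditions that follows GC content, whatever its source.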

How the data were processed

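Poly(A) RNA was sequenced as paired reads from 4 sources of B16F10 cells, 1 library each. What the authors deposited is 1 table of counts: whole reads for every gene symbol, not normalized. Per the submitters' processing notes, Trimmomatic, STAR, featureCounts and the build mm10 were used, and the sources used here give neither versions nor the strand setting. Overlapping and antisense genes therefore cannot be told apart.

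Counts were scaled to CPM with TMM factors of all 4 libraries (0.908 for the spheroid, 1.16 for the tumor, 0.984 for the 2D monoculture and 0.963 for the 2D co-culture) from edgeR 4.0.16 in R 4.3.3, which was used for scaling only. The limit for a gene with no read, 3 reads, was 0.0185 to 0.0262 CPM. No test was made, since each condition has 1 library. Intervals rest on the exact (Clopper-Pearson) binomial interval of the share of a gene's reads in the spheroid. GC content and length are those of GENCODE M21 transcripts, and promoters are those of RefSeq. Python 3.11.15, numpy 2.4.6, pandas 2.3.3, scipy 1.17.1 and matplotlib 3.10.9 were used, and the scripts were tested on simulated data.

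The members, lists and thresholds were chosen with earlier results of these data known. Named genes are the 10 highest and 10 lowest ratios, the 10 of highest mean level within 0.1 of a ratio of 0, the 5 of highest mean level, the 3 on each side of the filter, cell type markers past it, and of each list the 4 of highest mean level with its highest and lowest ratio. Not every gene the rule names is reported here. Asns, Atf3, Chac1, Nupr1 and Pck2 fall outside this rule and were chosen, after their values were seen, for their promoter match. Of 8 motifs searched, the hypoxia core NACGTG (31.1% of kept promoters), the GC box GGGCGG (73.8%) and the heat shock element (0.602%) are not described further. Alternatives were other scalings, filters, pseudocounts and the removal of GC content or length.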

Additional observations from a re-analysis of the deposited data

How the results depend on the processing

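No paired analysis was possible because there is 1 library a condition. Settings were changed one at a time, and leaving out a library was not possible for the same reason. Relative to the median of all kept genes, 524 of 552 list medians moved by less than 1.5-fold without a change of direction in a called list. Of 21 alternatives of the GC trend, 20 moved by less than 1.5 times. Both tallies count the other scalings, which can hardly move a relative median or a rank correlation, so they say little about stability. Under the changed filters and the removal of GC content or length, 19 to 38 of 46 lists kept their call. With at least 1 CPM in the monoculture, the medians became 1.74 for amino acid transporters, -0.94 for matrix proteins and -2.88 for interferon-stimulated genes, and 10 markers of other cell types were kept. With at least 30 CPM, 1207 genes were more than 2-fold lower, and integrins and laminins had -0.46 and interferon-stimulated genes -1.95. With all genes that had a read, 4105 were lower, the median absolute log2 ratio was 0.67, the GC correlation 0.44, and the medians 1.82 for transporters, -2.16 for matrix proteins and -2.89 for interferon-stimulated genes. With GC by length classes removed, 1315 genes were higher, the median absolute ratio was 0.64, heat shock proteins and hnRNP genes reversed to 0.084 and 0.067, and the medians were 1.68 for ATF4 targets, 2.01 for transporters, -1.40 for CCT subunits, -0.56 for fatty acid synthesis, -1.82 for G2/M genes and -0.48 for melanocyte regulators. With GC classes alone removed, 1389 were higher, the median absolute ratio was 0.69, heat shock proteins and hnRNP genes again reversed, to 0.0614 and 0.0612, and the medians were 1.91 for transporters, -1.33 for CCT subunits, -0.44 for glycolysis, -0.42 for fatty acid synthesis, -1.78 for G2/M genes, -0.54 for melanocyte regulators, -0.89 for actin and tubulin genes and -0.58 for matrix proteins. With length classes removed, chromatin regulators reversed to 0.053, and integrins and laminins had 1.04. Apart from the genes that each filter or removal itself adds or takes out, the cause was not tested. With 1 library a side, depth limits only the counting error, and the spread between samples is unknown.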
